A study of Mus musculus with 6 samples.

Results

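Prl2c2 and Prl2c3 encode proliferins, secreted glycoproteins of the prolactin family. These 2 genes, out of 21959 usable genes in the deposited table, were chosen by their lower FPKM (sequenced fragments of a gene, scaled by the length of its transcripts and by the size of the library) in PID+ than in PID- cells, and were set beside the 24 other Prl family genes that have a row. Since the choice rested on this contrast, their difference between the conditions is given as a description, without a test.

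RNA-seq was performed on primary colonic tumor cells of mice. By the study's text these were cultured lines established from adenomas and kept in medium with fetal bovine serum. The mice that gave the PID+ cells had the genotype CDX2P-NLS-Cre;APC^Δ/+ and, in addition, ROSA26-PID (labelled mouse4, mouse7 and mouse26), in which Cre activates a Rosa26 allele for a GST fusion of the Pak inhibitor domain (PID), a peptide that inhibits Group I Paks, together with eGFP. Those that gave the PID- cells were littermates with CDX2P-NLS-Cre;APC^Δ/+ and no PID allele (labelled mouse1, mouse2 and mouse3, and called normal and untreated there). The numbers of the PID+ mice are those the study's text gives its PID+ cells, but its PID- cells carry other numbers than the labels do. As the study describes them, the cells of both conditions carried the APC^Δ allele and the Cre driven by the CDX2 promoter. That Cre acts in the epithelium of the large and distal small intestine. The labels give no age and no strain. Both conditions had 3 samples, but the table holds 1 pooled FPKM per gene and condition, so no value has a replicate check and the spread between mice is unknown. The deposited interval of each FPKM covers CuffDiff's own error model only, and the methods call the merged sets of reads "replicated sequencing runs" where the labels name single mice. The rows called treated were read as PID+, since the labels call the PID- samples untreated. The PID transgene has no row on which this could be checked.

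The prolactin family of the mouse is a large set of hormones and cytokines encoded on chromosome 13, most of them made by the trophoblast and decidua of the placenta. Proliferins are made in large amounts by trophoblast giant cells, but were first found as transcripts that serum growth factors induce in cultured mouse fibroblasts. They are known to promote the growth of blood vessels and to bind the mannose 6-phosphate receptor for insulin-like growth factor 2, Igf2r, rather than the prolactin receptor.

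Prl2c3 (ENSMUSG00000056457.5, chromosome 13 of GRCm38 from 12790816 to 12800079, minus strand) was measured at 1.78 FPKM in PID+ cells, against 69.6 in PID- cells. Its deposited intervals ran from 0 to 5.26 in PID+ and from 24.1 to 115 in PID- cells. The FPKM was thus 39.1-fold lower in PID+ cells, and on the log2 scale of FPKM + 1, which understates changes of low values, the change was -4.67. Prl2c2 (ENSMUSG00000079092.3, chromosome 13 from 12996125 to 13005383, minus strand) was measured at 0.585 FPKM in PID+ cells, against 37.7 in PID- cells, with intervals from 0 to 1.72 and from 8.27 to 67.1. This was a 64.5-fold lower value, or -4.61 on the log2 scale. Both genes were thus expressed in PID- cells at a lower bound above 0 and had intervals reaching 0 in PID+ cells, and for neither gene did the intervals overlap. The lower bound in PID- cells was 4.59 times the upper bound in PID+ cells for Prl2c3 and 4.81 times for Prl2c2. In bulk samples, fewer cells expressing a gene and less of its RNA per cell cannot be told apart.

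The depth behind these values could be estimated from the steps in the FPKM of low genes, although it is approximate for reads shared between copies. Prl2c3 corresponded to about 82.2 reads in PID+ and 4423 in PID- cells. Prl2c2 corresponded to about 26.4 and 2343 reads. The PID+ values therefore rested on few reads, but on more than the floor of 3. The FPKM of a single read in PID+ cells was 1.38 times that in PID- cells. The part of read depth in the difference of either gene was not tested.

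Prl2c3 ranked 1265th of 21959 genes by FPKM in PID- cells, above 94.2% of the genes, and 10639th in PID+ cells. Prl2c2 ranked 2650th in PID- cells, above 87.9% of the genes, and 11787th in PID+ cells. In PID- cells both were thus in the upper part of the range of expressed genes, and in PID+ cells near the middle of the table, where FPKM is close to 0. By the size of the fall in log2 change of FPKM + 1 they were 10th and 11th among all genes. That order, with Prl2c3 first, reversed with a pseudocount of 0.1 in place of 1, where Prl2c2 had a log2 change of -5.79 and Prl2c3 of -5.21. The ranks among all genes depend on this choice too. Emb, Col1a2 and Tmem45a fell less than the pair at a pseudocount of 1, but further at 0.1 (-6.85, -6.18 and -6.08). Cep85 fell further than the pair at 1 (-4.97) and less at 0.1 (-5.04).

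Among the 26 Prl family genes, 2 had a 3-fold or larger fall on the scale of FPKM + 1, Prl2c2 and Prl2c3 themselves, and 0 rose by as much. Of all 21959 genes, 1.72% were at least 3-fold lower and 1.04% at least 3-fold higher. The same 2 genes were the members whose intervals lay apart, against 0.542% of all genes with intervals apart and lower in PID+ cells and 0.187% with intervals apart and higher. Of the 26 members, 22 were under an FPKM of 1 in both conditions, which cannot pass 3-fold on the scale of FPKM + 1. Since the pair was also chosen for its fall, nothing is read from these counts. The median log2 change of the family, in which 8 members were listed at 0 in both conditions, was 0, as was that of all genes.

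**Figure D1:**
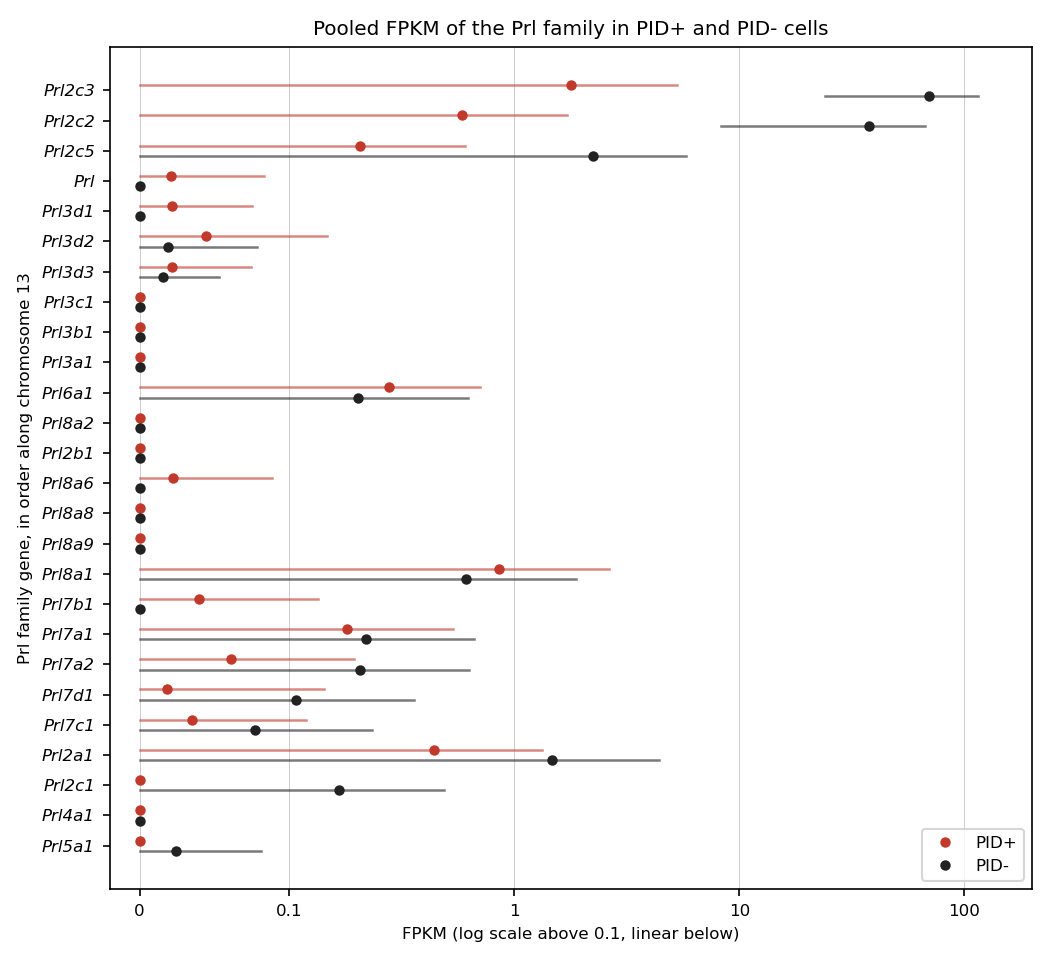
Pooled FPKM (x axis, log scale above 0.1 and linear below) of the 26 Prl family genes in PID+ (red) and PID- (black) cells. Points are the deposited values, 1 per condition, and lines the deposited intervals. Prl2c3 and Prl2c2 lie at 69.6 and 37.7 in PID- cells, while no other member exceeds 2.24 in either condition.

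The other proliferin genes had far lower values than the pair in PID- cells. Prl2c5 (ENSMUSG00000055360.10, chromosome 13 from 13182715 to 13191923, plus strand), a further proliferin gene, was measured at 0.206 FPKM in PID+ cells, against 2.24 in PID- cells. These values correspond to about 11.1 and 166 reads. The FPKM was 10.8-fold lower in PID+ cells and the log2 change was -1.42, but the intervals, from 0 to 0.602 and from 0 to 5.82, overlapped. Prl2c5 did not pass the 3-fold threshold on the scale of FPKM + 1, and passed it with a pseudocount of 0.1 (log2 change -2.93), a setting at which 3.62% of all genes were at least 3-fold lower and 2.83% at least 3-fold higher. Prl2c1 (ENSMUSG00000062551.9, chromosome 13 from 27849342 to 27857788) was listed at 0 in PID+ cells and at 0.167 FPKM in PID- cells. In the order Prl2c3, Prl2c2, Prl2c5 and Prl2c1, the FPKM decreased in both conditions, but the intervals of Prl2c3 and Prl2c2 overlapped in both, as did those of Prl2c2 and Prl2c5 in PID+ cells and those of Prl2c5 and Prl2c1 in PID- cells. In PID- cells the interval of Prl2c5 lay below that of Prl2c2. The summed FPKM of these 4 genes, which depends little on how reads were divided among these genes of similar length, was 2.57 in PID+ cells against 109.7 in PID- cells, which is -4.95 on the log2 scale. Prl2c2 and Prl2c3 made up 92.0% of that sum in PID+ and 97.8% in PID- cells.

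The remaining members of the family were low in both conditions, and most were at or near 0. Prl2a1, a placental member close to Prl2c1 on the chromosome, was at 0.439 FPKM in PID+ cells against 1.47 in PID- cells, a difference of -0.78 on the log2 scale with overlapping intervals. Prl8a1 had 0.850 and 0.610, the highest FPKM in PID+ cells of any member outside the pair. Its log2 change of 0.20 turned to -0.05 when Gapdh was set equal between the conditions, a scaling that multiplies every PID+ value by 0.648. Relative to the median shift of that scaling it was 0.53, though a gene listed at 0 in both conditions was then at 0.58. Of the 24 members other than Prl2c2 and Prl2c3, 22 stayed under an FPKM of 1 in both conditions. Among these, the other members with an FPKM above 0.1 in a condition were Prl6a1 (0.278 in PID+ and 0.202 in PID- cells), Prl7a1 (0.180 and 0.219), Prl7a2 (0.0609 and 0.207) and Prl7d1 (0.0184 and 0.107). Exons of Prl6a1 overlap those of Gm11357 in the annotation. Below these lay Prl7c1, with 0.0352 and 0.0768, and Prl3d2 and Prl3d3, which encode placental lactogens and had at most 0.0444. Prl, the gene of prolactin itself, had an FPKM of 0.0213 in PID+ cells, about 1 read, and was listed at 0 in PID- cells. Prl3d1, Prl7b1 and Prl8a6 were likewise listed at 0 in PID- cells, with at most 0.0395 in PID+ cells, and Prl5a1 was listed at 0 in PID+ cells with 0.0243 in PID- cells. Prl2b1, Prl3a1, Prl3b1, Prl3c1, Prl4a1, Prl8a2, Prl8a8 and Prl8a9 were listed at 0 in both conditions. Without Prl2c2 and Prl2c3 the family had a summed FPKM of 2.24 in PID+ cells against 5.36 in PID- cells, and without all 4 Prl2c genes one of 2.03 against 2.96. The pair made up 95.2% of the summed FPKM of the family in PID- cells and 51.4% in PID+ cells.

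The pair and Prl2c5 lie apart from the rest of the family. In the annotation, 23 members lie on chromosome 13 between 27057570 and 28151611, and Prl2c3, Prl2c2 and Prl2c5 lie 13.9 Mb away, with 196 kb between Prl2c3 and Prl2c2. The highest FPKM of the 23 members in either condition was 1.47, that of Prl2a1. Prl2c1 is the proliferin-like copy located among the 23.

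The other 8 genes of the table within 500 kb of Prl2c3 or Prl2c2 had smaller differences. Their log2 changes ran from -0.95 to 0.25, with a median of -0.01, and the intervals of 0 of the 8 lay apart, from which nothing is read since 0.542% of all genes were lower and 0.187% higher with intervals apart. Gpr137b, which encodes a lysosomal membrane protein, was at 86.6 FPKM in PID+ cells against 102 in PID- cells. Heatr1, a ribosome biogenesis gene, had 16.4 and 13.7, and its log2 change of 0.24 turned to -0.34 with equal Gapdh. Lgals8, which encodes galectin-8 and overlaps exons of Heatr1, had the lowest log2 change of the 8, at 28.0 FPKM in PID+ cells against 55.1 in PID- cells. Nid1, which encodes the basement membrane protein nidogen-1, had 1.08 and 2.66. Ero1lb, an oxidase of the endoplasmic reticulum, had 2.65 and 2.06, with a log2 change of 0.25 that turned to -0.17 with equal Gapdh. Relative to the median shift of that scaling, Heatr1 and Ero1lb were at 0.25 and 0.41, with their signs as before. Actn2 and Edaradd were below 0.1 in both conditions and Gm2399 was listed at 0. The 340 genes of chromosome 13 whose FPKM averaged 5 or more had a median log2 change of -0.20.

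**Figure D2:**
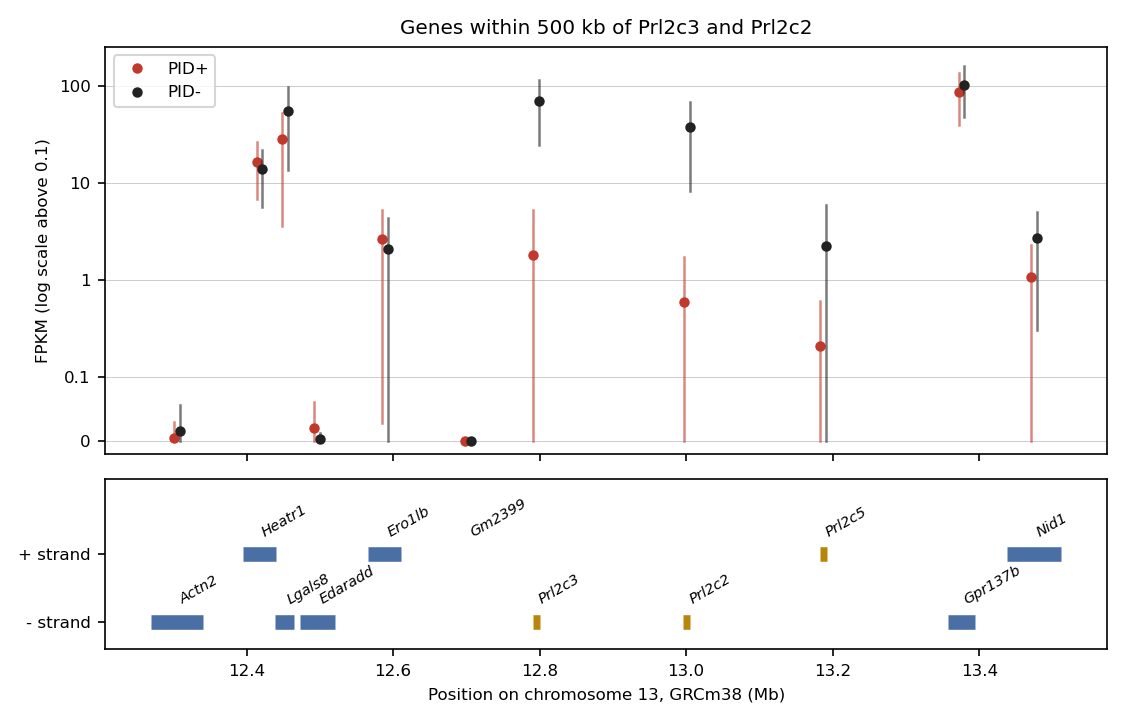
FPKM with deposited intervals (upper panel, y axis on a log scale above 0.1 and linear below) of the genes within 500 kb of Prl2c3 or Prl2c2 in PID+ (red) and PID- (black) cells, against position on chromosome 13 of GRCm38 in Mb. The lower panel shows each gene's extent and strand, with Prl genes in gold (Gm2399 is too short to be seen). The intervals lie apart for Prl2c3 and Prl2c2 and overlap or are at 0 for the 8 neighbours and Prl2c5.

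How far Prl2c2 and Prl2c3 are separate measurements depends on how much sequence they share. The 672 coding bases of their Gencode transcripts were 99.6% identical, with 3 mismatches and no gap, and the transcripts of 842 and 857 bases, each with 5 exons, differed by 4 mismatches and 15 gap bases. Of all runs of 50 bases (the read length in the labels) in the Prl2c2 transcript, 80.1% also occurred in that of Prl2c3, and 89.5% in that of at least 1 other gene. For Prl2c3, 78.6% of the runs occurred in another gene's transcript. The pseudogene Gm7040 held 23.8% of the runs of Prl2c2 and 23.4% of those of Prl2c3. Prl2c5 was more distinct, with 38.6% of its runs shared, and its coding sequence was 96.1% identical to that of Prl2c2. The split between Prl2c2 and Prl2c3, with Prl2c3 at 3.05 times the FPKM of Prl2c2 in PID+ cells and 1.85 times in PID- cells, is therefore uncertain, since how reads that match several copies were divided is not stated in the methods. The methods name paired end reads, which the labels do not state, and both ends of a fragment together could tell the copies apart more often than the single runs counted here. The lower values of Prl2c5 and Prl2c1 may likewise include reads of the pair, which was not tested.

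The coding differences show how little distinguishes the pair. Counted from 1 at the first coding base, with the base of Prl2c2 first and that of Prl2c3 last, they are T14C, C200A and T319G. The first is at 13005313 of chromosome 13 (GRCm38) in Prl2c2 and at 12799999 in Prl2c3. It is shown here, with the differing base in capitals and 10 bases to each side, with the matching stretch of Prl2c5.
Prl2c2: ctcccttcttTgattcaacca
Prl2c3: ctcccttcttCgattcaacca
Prl2c5: ctcccttcttTgattcaacca
The second is at 13002141 in Prl2c2 and at 12796838 in Prl2c3.
Prl2c2: gaactgttcaCtgaatttgaa
Prl2c3: gaactgttcaAtgaatttgaa
Prl2c5: gaactgttcaCtgagtttgaa
The third lies within the 60-base coding window, bases 306 to 365 of Prl2c2, that held the most differences between Prl2c2 and Prl2c5 without a gap. The window crosses an exon junction and covers chr13:12997418-12998590 (minus strand) in Prl2c2, chr13:12792125-12793297 (minus strand) in Prl2c3 and chr13:13189466-13190635 (plus strand) in Prl2c5, introns included. Capitals mark the 7 positions at which the 3 genes were not all alike.
Prl2c2: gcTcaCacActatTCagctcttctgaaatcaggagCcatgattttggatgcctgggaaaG
Prl2c3: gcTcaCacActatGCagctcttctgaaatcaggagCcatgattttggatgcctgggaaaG
Prl2c5: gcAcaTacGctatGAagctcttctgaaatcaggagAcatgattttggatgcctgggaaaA
In this window Prl2c2 differed from Prl2c5 at 7 bases and from Prl2c3 at 1.

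Promoter sequences from RefSeq (GRCm38.p6, 250 bases before to 50 after the start) were matched for Prl2c3 and Prl2c5, which bear on the comparison because Prl2c3 had the highest FPKM of the family in PID- cells and Prl2c5 a low one. Prl2c2 was not matched. The promoters of Prl2c3 (chr13:12800030-12800329, minus strand) and Prl2c5 (chr13:13182466-13182765, plus strand) were 95.3% identical, with 12 mismatches and 2 gap bases. The last 100 bases before the start are shown for Prl2c3 (chr13:12800080-12800179) and Prl2c5 (chr13:13182616-13182715), with the TATA motif TATATAA in capitals.
Prl2c3: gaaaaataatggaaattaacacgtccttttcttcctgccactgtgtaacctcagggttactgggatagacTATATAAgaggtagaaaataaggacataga
Prl2c5: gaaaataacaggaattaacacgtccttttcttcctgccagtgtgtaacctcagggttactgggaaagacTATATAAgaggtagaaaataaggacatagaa
The motif began 30 bases before the start in Prl2c3 and 31 in Prl2c5. The stretch of Prl2c5 includes 13182715, the first base of the gene as given above, so this difference depends on the start used. Searched on both strands, TATATAA was held by 3.24% of 32851 promoters of the same length and by 7 of the 22 family genes with an entry. The AP-1 motif TGACTCA was held by 5.20% of all promoters and by 6 of the 22, and was in neither of these promoters. These motifs were chosen after the sequences had been seen, and a match is a description of the letters only.

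Of the receptors of proliferins and prolactins, Igf2r was above Prlr in both conditions, and M6pr is set beside them. Igf2r, the proliferin receptor, was at 18.1 FPKM in PID+ cells against 35.8 in PID- cells, with a log2 change of -0.95. M6pr, the smaller mannose 6-phosphate receptor, had 70.4 and 44.1, a log2 change of 0.66. Neither Igf2r nor M6pr reached the 3-fold threshold, and for both genes the intervals of the conditions overlapped. Prlr, the prolactin receptor, was near 0 in both conditions, with 0.0384 and 0.00353.

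Of the 14 genes of the prolactin receptor and its signaling pathway, 1 fell by 3-fold or more and 0 rose by as much, against 1.72% lower and 1.04% higher among all genes. The median log2 change of the list was -0.14, against 0 for all genes. Jak2, the kinase bound to the prolactin and growth hormone receptors, was the gene past 3-fold. It was at 23.6 FPKM in PID+ cells against 73.7 in PID- cells (log2 change -1.60), and its intervals overlapped. The feedback inhibitors Socs2 (17.7 and 42.0) and Socs3 (5.57 and 14.7) had log2 changes of -1.20 and -1.26, short of the threshold. With equal Gapdh these became -1.78 and -1.77, past it, so that 3 of the 14 genes were past 3-fold. That scaling put 3.01% of all genes at least 3-fold lower and 0.346% at least 3-fold higher. Relative to its median shift, Socs2 and Socs3 were at -1.20 and -1.19, short of the threshold.

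AP-1 factors are known to act on proliferin genes in fibroblasts, and 0 of the 7 Fos and Jun genes passed the 3-fold threshold in either direction. Over all genes 1.72% were lower and 1.04% higher by this rule, so a count of 0 among so few genes says nothing particular to them. Their median log2 change was 0.12, against 0 for all genes. Of the 7 genes, 4 were higher and 3 lower in PID+ cells, and their summed FPKM was 225.0 against 229.4 in PID- cells. Fos was at 10.4 FPKM in PID+ cells against 3.52 in PID- cells, with a log2 change of 1.34. The lower genes were Fosl2 (35.6 and 55.7), Jun (6.55 and 9.52) and Jund (33.6 and 38.0), with log2 changes of -0.63, -0.48 and -0.17. Junb was the most abundant, with 105 and 96.7. With equal Gapdh its log2 change of 0.12 turned to -0.50, and the sign of Fosl1 (32.0 and 25.2) flipped as well. Relative to the median shift of that scaling, Junb and Fosl1 were at 0.08 and 0.31, with their signs as before.

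Markers of cell types in which proliferins are known, or which a tumor culture could hold, were set beside the pair. Of the 11 fibroblast markers, 5 fell by 3-fold or more as the pair did, 6 did not pass the threshold and 0 rose by as much, against 1.72% lower and 1.04% higher among all genes. With a pseudocount of 0.1, 7 of the 11 passed it, against 3.62% of all genes. The intervals of 2 of the 11, Vim and Col1a2, lay apart, against 0.542% of all genes with intervals apart and lower. Their median log2 change was -0.998, and their summed FPKM was 26.6 in PID+ cells against 1041 in PID- cells. Vim, an intermediate filament gene that mesenchymal cells of many kinds express, was the most abundant, with 19.1 and 997. The collagen genes Col1a2 (0.0654 and 11.9), Col1a1 (2.32 and 11.9) and Col3a1 (0.339 and 6.35) were also past 3-fold, but the intervals of Col1a1 and Col3a1 overlapped. Dcn was listed at 0 in PID+ cells with 2.39 in PID- cells, and Thy1 at 0 with 0.377. Lum was listed at 0 in both conditions, and Pdgfra was near 0, with 0.188 and 0.243. The part of these cells or genes in the difference of Prl2c2 and Prl2c3 was not tested.

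Of the 10 epithelial markers, 2 rose by 3-fold or more, Epcam (401 in PID+ and 124 in PID- cells) and Cldn7 (274 and 79.4), and 1 fell by as much, the intestinal transcription factor Cdx2 (0.542 and 8.04), against 1.04% higher and 1.72% lower among all genes. The intervals of these 3 genes overlapped. The summed FPKM of the list was 9083 in PID+ cells against 4965 in PID- cells, and the median log2 change was 1.08. Krt18 was the most abundant in PID+ cells, with 2843 against 1199. With equal Gapdh, Epcam and Cldn7 had log2 changes of 1.06 and 1.15, short of 3-fold, where 0.346% of all genes were at least 3-fold higher, but relative to the median shift of that scaling they were 1.64 and 1.74, past it. With equal total FPKM Epcam was just short of 3-fold (1.576). The keratins and Epcam were thus present at high levels under both labels, while Cdx1 was listed at 0 in both conditions and Vil1, the villin gene of the brush border, was near 0, with 0.175 and 0.0614. The part of these markers in the difference of the pair was not tested.

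The trophoblast markers were near 0 where the pair was high. Of these 14 genes, 12 were under an FPKM of 1 in both conditions, which cannot pass 3-fold on the scale of FPKM + 1, and 0 of the 14 passed it, against 1.72% lower and 1.04% higher among all genes, with a median log2 change of 0.0029 and a summed FPKM of 4.30 in PID+ cells against 4.76 in PID- cells. Hand1, which trophoblast giant cells need, was listed at 0 in both conditions, and Tpbpa, a spongiotrophoblast gene, had 0.0123 and 0.00894. The members above 1 were Gata3 (1.06 and 3.01) and Eomes (2.15 and 0.993), which other tissues express too. The endothelial list had a sum of 3.79 in PID+ cells against 1.17 in PID- cells, of which Kdr made up 3.33 and 1.01. The 7 leukocyte markers had sums of 21.96 and 17.1, almost wholly Cd68 (21.8 and 16.8), a lysosomal gene, with Cd3e listed at 0 and Ptprc at 0.0264 and 0.00811. The 6 mast cell markers summed to 0.785 and 0.567, with Cpa3, Tpsb2 and Ms4a2 listed at 0. In the endothelial, leukocyte and mast cell lists 0 genes passed the threshold, and in lists as short as these nothing is read from a count of 0 beside 1.72% lower and 1.04% higher among all genes. With a pseudocount of 0.1 the endothelial list had 2 higher genes, Kdr and Cdh5, against 2.83% of all genes.

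**Figure D3:**
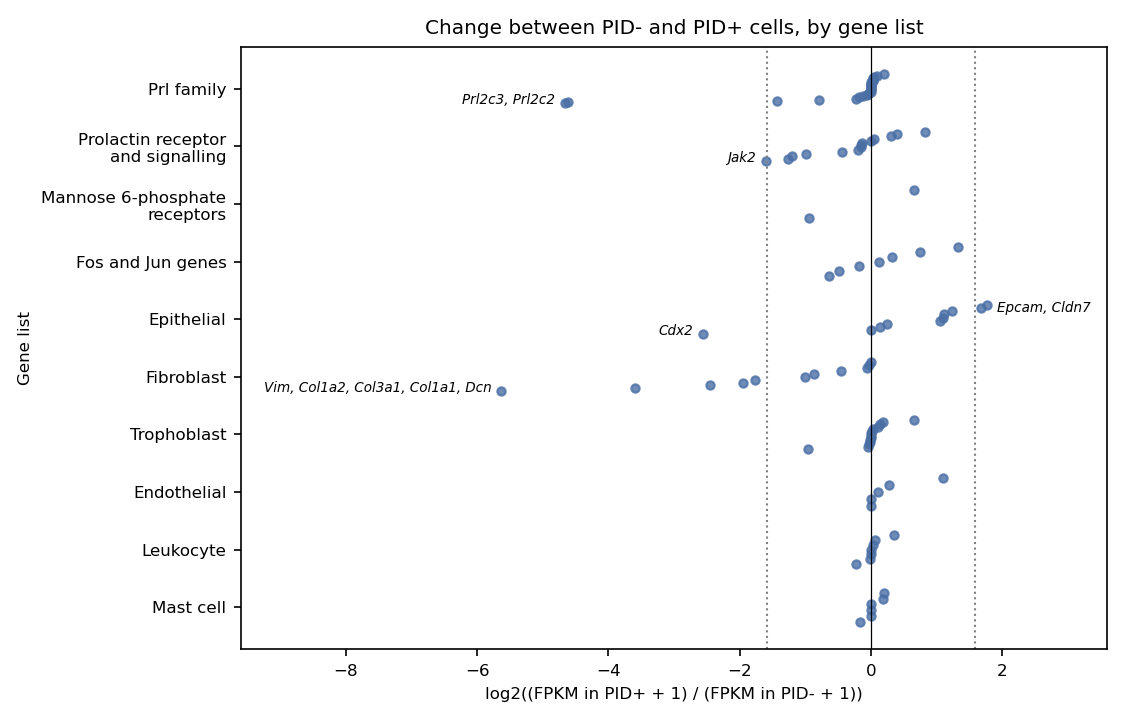
Log2 change of FPKM + 1 between PID- and PID+ cells (x axis, negative where PID+ is lower) for each gene of 10 lists (y axis). Dotted lines mark 3-fold and the genes beyond them are named. Prl2c3 and Prl2c2, at -4.67 and -4.61, are the members of the Prl family beyond the lines, and with equal Gapdh the family has the same number of genes beyond them.

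The genes whose log2 change was nearest to the mean of the pair, among genes with intervals apart that reached 1 FPKM in either condition, were Emb, Cep85, Bgn, Tmem45a and Notum. Emb, which encodes the cell surface protein embigin and also lies on chromosome 13, from 117208536 to 117274415, was at 0.0919 FPKM in PID+ cells against 22.1 in PID- cells, with a log2 change of -4.40. Its exons overlap Gm17509 in the annotation. Cep85, a centrosomal gene, had 15.8 and 525, a log2 change of -4.97. Bgn, which encodes the matrix proteoglycan biglycan, had 0.570 and 28.3, a log2 change of -4.22. Tmem45a, a transmembrane protein gene, had 0.212 and 21.002, and Notum, which encodes a secreted Wnt inhibitor and overlaps Notumos and Myadml2os, had 0.656 and 29.0, each with a log2 change of -4.18. Likeness here rests on 2 conditions only, and their distance from the mean of the pair ranged from 0.24 to 0.46 on the log2 scale. The choice depends on the scale: of the 5 genes, 4 were among the nearest 5 with equal total FPKM, 2 with equal Gapdh and 0 with a pseudocount of 0.1, where Emb was the farthest of them at -6.85.

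The abundant genes Gapdh and Actb were at 2570 and 1909 FPKM in PID+ cells, against 1666 and 1433 in PID- cells. Setting Gapdh equal between the conditions shifted the median log2 change of the 9341 genes averaging 5 FPKM or more to -0.58, and turned the log2 change of Actb from 0.41 to -0.21. Relative to that shift, the log2 changes of Prl2c3, Prl2c2 and Actb under this scaling were -4.45, -4.23 and 0.37.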

How the data were processed

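The authors trimmed reads of poly A libraries with CutAdapt, used TopHat and a Gencode annotation limited to protein coding genes to align them to GRCm38.p3, pooled the 3 read sets of each condition, and deposited gene-level FPKM from CuffDiff with the bounds of its intervals. Genes with an OK status in both conditions were used (21959, with 7 left out). The total FPKM was 585870 for PID+ cells and 545310 for PID- cells. At a mean FPKM of 10 or more, the interval's half-width had a median of 75.1% of the value for PID+ cells and 73.9% for PID- cells. The number of reads was estimated from steps in low FPKM: with a length correction of 180 bases, 99.0% of 505 genes in PID+ and 97.6% of 494 in PID- cells lay within 0.1 of a whole read. The total depth is unknown.

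Log2 changes compare FPKM + 1 of PID+ cells with FPKM + 1 of PID- cells, with a threshold of 3-fold. With 1 pooled value per condition no test was possible. Positions and transcripts came from Gencode M21 (GRCm38). Exons of Gapdh, Nid1, Jun, Junb, Jund, Fosl1, Col3a1, Pdgfra, Vil1, Cd3e, Gata3, Eomes and Prlr overlap another annotated gene. The library kit does not mark strand, so the values of these genes are less certain. Prl2c2 and Prl2c3 overlap no other exons. Of the 27 family symbols listed, 26 have a row, since Prl2c4 is a synonym of Prl2c3. Gene members and lists were chosen with earlier results of these data known. Named were the Prl genes, up to 4 members of each other list by size of change and level, with defining markers at 0, the 5 genes of nearest log2 change, genes within 500 kb, Gapdh and Actb. Other list members were named after their values were seen. The calculations were tested on simulated data. Python 3.11.15, numpy 2.4.6, pandas 2.3.3, Biopython 1.88 and matplotlib 3.10.9 were used.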

Additional observations from a re-analysis of the deposited data

How the results depend on the processing

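Both genes were lower in PID+ cells under each of the settings tried. The settings rescale, offset or sum the same pooled values, too little to reverse differences of this size, so nothing is read from that. The log2 change of Prl2c2 ran from -5.79 (pseudocount of 0.1) to -4.23 (equal Gapdh, relative to the median shift of genes, a setting chosen after seeing the data), that of Prl2c3 from -5.21 to -4.45 under the same settings, and that of the summed Prl2c genes from -5.37 (equal Gapdh) to -4.76 (median of chromosome 13 subtracted). The same median gave -4.41 for Prl2c2 and -4.47 for Prl2c3. The list counts and nearest genes under other settings were also added after seeing the data. The number of Prl family genes at least 3-fold lower was 2 in each setting except a pseudocount of 0.1, where Prl2c5 made it 3. Over all genes the counts moved more. From 377 lower and 229 higher genes, they went to 795 and 621 with a pseudocount of 0.1, to 662 and 76 with equal Gapdh, to 221 and 144 among genes averaging 5 FPKM or more, and to 119 and 41 where the deposited intervals lay apart. The mean FPKM and interval settings admit fewer genes by construction, and the cause of the other shifts was not tested. Leaving out each sample in turn and a replicate block were not run. No paired analysis was possible because the table holds 1 pooled value per condition. The PID+ values of Prl2c2 and Prl2c3 rest on about 26.4 and 82.2 reads, which limits how well the size of the difference is known.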
